A study of Homo sapiens with 9 samples.

Results

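Antisense noncoding genes are named after a neighbouring gene with the suffix -AS and a number, and most of them are transcribed from the strand opposite to that gene. Of 26485 genes in the count table of this series, 979 carry such a name, and the 341 with a mean raw count of at least 30 over the 9 libraries are described here. That mean was the only measured value in the rule that chose them, and the rule was set with earlier results of these data known. The 3 genes just inside the limit were TBC1D22A-AS1, LDLRAD4-AS1 and USP3-AS1, with mean counts of 30, 30.1 and 30.4, and the 3 just outside were JAKMIP2-AS1, OSGEPL1-AS1 and LAMTOR5-AS1, with 29.9, 29.7 and 29.7. All 341 passed the filter on low counts and were tested.

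The study sequenced poly(A)-selected RNA of HEK293 cells, a human embryonic kidney line, in 3 groups of 3 libraries. In the addback group, cells in which UBE3D had been knocked out by CRISPR/Cas9 carried UBE3D again. The KO group had the knockout alone, and the WT group was the unmodified line. UBE3D, a ubiquitin ligase, is studied here for its tie to CPSF73, the nuclease that cleaves transcripts at their 3′ ends before polyadenylation, and to transcription that reads through gene ends. The sample type is labelled Pooled. Neither the number of knockout clones nor the use of separate cultures for replicate libraries is stated, and p-values therefore reflect variation among libraries that may be only technical.

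Antisense transcripts arise from promoters that fire in both directions, from promoters inside genes, or from transcription that runs past the end of a convergent neighbour. Many are short-lived and are removed in the nucleus by the RNA exosome, while others are spliced, polyadenylated and as stable as messenger RNA. Some are known to act on their neighbours, such as CDKN2B-AS1 (ANRIL) at the CDKN2A and CDKN2B tumour suppressor genes, and several are hosts from whose introns small nucleolar RNAs are cut. Poly(A) selection keeps the polyadenylated forms only.

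Total counts ran from 23088295 to 37508780 per library. Levels are given as scaled CPM, counts relative to library size (CPM) after library sizes were scaled on the 5434 genes with a mean CPM of at least 50, and comparisons between genes use scaled CPM per kilobase of exon. A gene was called higher or lower where its edgeR quasi-likelihood p, Benjamini-Hochberg adjusted over all 21994 genes tested, was under 0.05. UBE3D itself stood at 3358, 3339 and 2771 scaled CPM in addback libraries, 13.1, 15.6 and 14.3 in KO libraries and 19.5, 21.5 and 26.8 in WT libraries. Its KO level was lower than WT by a log2 fold of -0.64 ± 0.14 (SE; edgeR adjusted p = 0.00379), which missed the threshold when scaled over all genes (-0.28, adjusted p = 0.142), and UBE3D RNA was counted in every KO library. The exact permutation p was 0.1 for each pair of groups, the smallest that 3 against 3 libraries allow. HEK293 markers were present in all libraries, with sums of 2349 to 2513 scaled CPM in addback, 2687 to 2990 in KO and 2354 to 2423 in WT. The members of this list differed in direction. IRS4, a signalling adaptor, stood at 348, 310 and 348 scaled CPM in addback, 235, 156 and 241 in KO and 860, 812 and 849 in WT. PAX2, a kidney factor, stood at 11.0 to 17.0 in addback, 2.02 to 3.46 in KO and 10.2 to 17.7 in WT, while VIM was highest in KO.

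The libraries also differed in counts over odorant receptor genes, which are mainly expressed in the olfactory epithelium. Over 373 such genes, the summed counts were 8347, 39419 and 39853 in addback libraries 1, 2 and 3, 149, 143 and 217 in KO libraries and 9557, 31284 and 37514 in WT libraries. Addback library 1 and WT library 1 were thus low within their groups, and all 3 KO libraries were near 0. Of all 21994 genes tested, 60.2% had their lowest scaled CPM in library 1 of both addback and WT, and of the 341 antisense genes 29.9% did. Sums of 5 fibroblast markers ran from 69.5 to 127 scaled CPM in addback, 45.3 to 53.8 in KO and 56.1 to 136 in WT. Sums of 5 blood markers ran from 73.7 to 109 in addback, 36.1 to 43.1 in KO and 41.7 to 99.8 in WT, and those of 5 breast epithelial markers from 46.2 to 72.4 in addback, 28.9 to 34.4 in KO and 43.5 to 76.9 in WT. At 0 were 1 to 2 fibroblast markers in KO libraries and 2 breast epithelial markers in KO libraries 1 and 2. None of the markers was at 0 in addback or WT. The part of this difference in any result on antisense genes was not tested, nor was it tested whether these counts come from transcripts. In bulk RNA fewer cells with a transcript and less of it per cell cannot be told apart.

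By position on hg38, as the count table gives it, 330 of the 341 antisense genes lay on the strand opposite to their sense gene. A sense gene of the same name stem was in the table for 331 of them, 326 different genes in all. In 112 pairs the genes started apart and pointed away from each other, in 99 they overlapped at the start of the sense gene, and 172 antisense genes started within 1000 bases of the start of the sense gene. In 61 pairs the overlap was at the end of the sense gene, 39 antisense genes lay inside it, 12 spanned it and 7 ended near its end without overlap. HNRNPU-AS1 lay on the same strand as HNRNPU. Exon bases were shared with the sense gene by 153 antisense genes. Whether the counting used strand is not given in the sources used here, so reads over shared exon bases may belong to either gene. Of the 341 genes, 11 are listed at more than 1 locus, LENG8-AS1, HLA-F-AS1, WEE2-AS1 and ERICH1-AS1 among them, and their reads may be split between copies. GENCODE v29 lists 299 of the 341 symbols, 221 of them typed as antisense and 1, NCBP2-AS2, as protein coding.

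Most of these genes were expressed at low levels. The median mean count was 91, 188 of the 341 had a mean count under 100 and 9 reached 1000 or more. Per kilobase of exon, the median antisense gene of the 331 pairs stood at 17.3% of its sense gene in addback, 18.3% in KO and 17.7% in WT. The antisense gene was above its sense gene per kilobase in 41 pairs in addback, 54 in KO and 45 in WT. LRRC75A-AS1 (SNHG29), a host of small nucleolar RNAs, was the highest of all, with 110 scaled CPM per kilobase in addback, 137 in KO and 98.3 in WT. FGD5-AS1 followed in every group, with 42.9, 51.0 and 44.5 scaled CPM per kilobase in addback, KO and WT.

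In KO against WT, IQCH-AS1, LRRC75A-AS1 and other abundant antisense genes were higher, while a larger number, most of them at low levels, were lower. Of the 341, 20 were higher in KO, or 5.87%, and 55 were lower, or 16.1%, beside 8.54% of all genes tested called higher and 53.7% called lower. The median log2 fold change was -0.13 over the antisense genes and -0.49 over all genes tested. All KO libraries lay above all WT libraries in 67 of the 341 and below them in 109, beside 11.0% and 59.9% of all genes tested. In 53 antisense genes the mean count fell below 30 in 1 group or more, in 43 of these in KO. Such genes passed the limit through their higher groups, which favours a difference between groups, so the other 288 are given apart. The difference could be slight, as for USP3-AS1 with mean counts of 29.3 in KO, 31.7 in addback and 30.3 in WT. Among the 288, 19 were higher in KO and 26 lower, against 12.6% and 37.1% of the 14546 genes with at least 30 mean counts in every group, and the median was -0.05 against -0.18. These counts depended on the scaling. With TMM factors over all genes, which moved the median of all genes by 0.37, 58 of the 341 were higher and 29 lower, and of the 288, 53 were higher and 6 lower. The median of the 341 then stood at 0.24 and that of all genes at -0.12. Upper quartile factors gave 34 higher and 40 lower. The shares of all genes called under these other scalings are not given, so these counts show only that the calls depend on scaling. Under all 5 other scalings 18 of the 20 higher calls and 29 of the 55 lower calls were kept, and the genes described as higher below are among these 18 unless said otherwise. The median of all genes moved by 0.37, 0.28, 0.15, 0.06 and -0.04 under these scalings, so most of them favoured higher calls. Keeping a higher call was therefore the easier test.

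**Figure D1:**
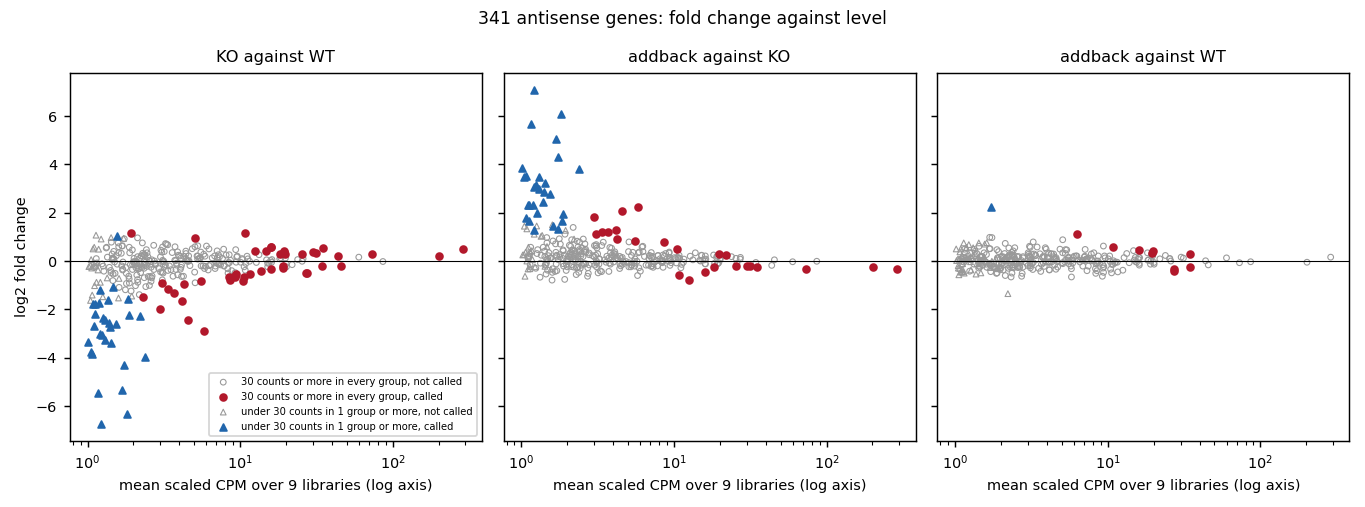
Log2 fold change (vertical axis) of the 341 antisense genes against mean scaled CPM over the 9 libraries (horizontal log axis) in the 3 comparisons, with called genes filled and genes under 30 mean counts in 1 group or more as triangles. In KO against WT the 20 genes called higher reach down to 0.19 on the log2 scale at high levels, while the folds beyond -3 all belong to triangles.

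Several abundant antisense genes were higher in KO. LRRC75A-AS1 (chromosome 17, 16438987-16470648, plus strand) had 357, 336 and 341 scaled CPM in KO libraries, against 258, 239 and 242 in WT libraries. No KO library overlapped a WT library, and the difference was 0.48 ± 0.04 on the log2 scale (SE; edgeR adjusted p = 0.000207). FGD5-AS1 (chromosome 3, 14942779-14948441, minus strand), a widely expressed noncoding RNA, had 228, 216 and 226 scaled CPM in KO and 206, 191 and 188 in WT. It rose by 0.20 ± 0.04 (edgeR adjusted p = 0.00399); no KO library overlapped a WT library. NIPBL-AS1, which starts beside the gene of the cohesin loader NIPBL, had 84.0, 80.2 and 87.7 scaled CPM in KO against 68.6, 69.0 and 69.3 in WT, and rose by 0.28 ± 0.04 (edgeR adjusted p = 0.00105). TMEM147-AS1, at the start of a gene for a membrane protein of the endoplasmic reticulum, had 40.8, 42.1 and 41.1 scaled CPM in KO against 28.98, 30.1 and 26.4 in WT, a rise of 0.54 ± 0.06 (edgeR adjusted p = 0.000524).

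The highest fold among the better-counted genes was that of IQCH-AS1 (chromosome 15, 67403611-67521844, minus strand). It stood at 16.0, 15.5 and 14.6 scaled CPM in KO libraries and 7.58, 6.12 and 6.77 in WT libraries, with every KO library above every WT library. The log2 fold was 1.17 ± 0.16 (SE; edgeR adjusted p = 0.000956), and 164 of its 6683 exon bases are shared with IQCH. RBM26-AS1, transcribed away from the gene of an RNA-binding protein linked to nuclear RNA turnover, had 3.27, 2.92 and 2.31 scaled CPM in KO against 1.17, 1.54 and 1.09 in WT (1.15 ± 0.41, edgeR adjusted p = 0.0339). LBX2-AS1, which shares 650 of 2449 exon bases with a homeobox gene, had 6.43, 6.39 and 5.64 scaled CPM in KO against 3.35, 3.45 and 2.73 in WT (0.95 ± 0.28, edgeR adjusted p = 0.016). The KO and WT libraries did not overlap for either gene. RBM26-AS1 missed the threshold in 5 of the 6 fits that left out a KO or WT library, LBX2-AS1 in 2 and SLC25A25-AS1 in 3. Of the genes named below, TMPO-AS1 and PSMA3-AS1 missed it in 4, MAPKAPK5-AS1 in 3 and TMEM51-AS1 in 6. All these fits kept 12 of the 20 higher calls and 24 of the 55 lower calls. The number of antisense genes higher in KO was 12 without KO library 2 and 13 without KO library 1, and the number lower was 29, 26 and 34 without KO libraries 1, 2 and 3.

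GABPB1-AS1 and EPB41L4A-AS1 rose by like amounts. GABPB1-AS1, which overlaps the start of the gene for a subunit of the ETS factor GABP over 424 of its 4133 exon bases, had 19.5, 20.04 and 20.4 scaled CPM in KO and 13.9, 13.6 and 12.1 in WT (0.60 ± 0.11, edgeR adjusted p = 0.00194). EPB41L4A-AS1, a small nucleolar RNA host, had 17.6, 19.1 and 18.6 scaled CPM in KO and 11.6, 12.1 and 13.7 in WT (0.57 ± 0.11, edgeR adjusted p = 0.0024). NNT-AS1 rose by 0.31, DHRS4-AS1 by 0.42, SLC25A25-AS1 by 0.41, MAPKAPK5-AS1 by 0.40 and TMPO-AS1 by 0.29 on the log2 scale (edgeR adjusted p of 0.00266 to 0.029). PSMA3-AS1, at 0.19 (edgeR adjusted p = 0.0408), and TMEM51-AS1, one of the 53 low genes, were the 2 higher calls that a change of scaling removed.

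Among the better-counted genes that fell in KO, the folds ran to -2.91 and the WT libraries were often far apart. RNF217-AS1, which overlaps the start of a RING finger ligase gene over 205 bases, had 1.28, 1.19 and 1.44 scaled CPM in KO libraries and 4.60, 6.67 and 18.2 in WT libraries (-2.91 ± 0.60, edgeR adjusted p = 0.00355). MLLT4-AS1, next to the gene of the junction protein afadin, had 1.25, 1.41 and 1.20 scaled CPM in KO and 3.29, 11.5 and 6.04 in WT (-2.43 ± 0.56, edgeR adjusted p = 0.00539). LIPE-AS1, which spans the gene of hormone-sensitive lipase, had 1.18, 1.01 and 0.974 in KO against 1.84, 7.23 and 3.59 scaled CPM in WT (-2.0 ± 0.57, edgeR adjusted p = 0.0138), and HOXA-AS3 of the HOXA cluster fell by 1.67 ± 0.45 on the log2 scale (edgeR adjusted p = 0.0113). WT library 1 was the lowest WT library for all 4 of these genes, as it was for the odorant receptor genes; the part of that in their folds was not tested. Library 1 was the lowest of both addback and WT in 9 of the 26 better-counted genes lower in KO, or 34.6%, and in 1 of the 19 higher, beside 22.6% of the 288.

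Other decreases came with close WT libraries. FOXP4-AS1, which overlaps the start of a forkhead factor gene, had 1.10, 1.19 and 1.46 scaled CPM in KO against 3.52, 3.66 and 3.32 in WT, without overlap (-1.48 ± 0.39, edgeR adjusted p = 0.00949). ZNF529-AS1, inside a zinc finger gene, had 8.08, 6.68 and 7.84 in KO against 13.2, 13.1 and 13.5 scaled CPM in WT (-0.81 ± 0.16, edgeR adjusted p = 0.0029). BAIAP2-AS1, head to head with the gene of an actin regulator, had 25.04, 22.0 and 23.3 in KO against 34.4, 35.2 and 30.5 scaled CPM in WT (-0.51 ± 0.08, edgeR adjusted p = 0.00163), and ARRDC1-AS1 had 22.2, 23.5 and 24.0 against 35.9, 32.4 and 29.9 (-0.49 ± 0.08, edgeR adjusted p = 0.00178). The calls of FOXP4-AS1 and ZNF529-AS1 were kept under all 5 other scalings, and those of BAIAP2-AS1 and ARRDC1-AS1 were lost under 2. CDKN2B-AS1 (ANRIL) had 6.98, 6.57 and 8.10 scaled CPM in KO against 10.3, 12.0 and 11.9 in WT (-0.66 ± 0.19, edgeR adjusted p = 0.0133), a call lost under 2 of the 5 scalings. OIP5-AS1 (Cyrano), at 42.0, 41.2 and 45.3 in KO and 53.2, 45.9 and 49.5 scaled CPM in WT, was called lower (-0.21 ± 0.06, edgeR adjusted p = 0.019), and its sign turned with TMM factors over all genes (0.14, adjusted p = 0.373). MCM3AP-AS1 (-0.55), STARD4-AS1 (-0.65), VPS9D1-AS1 (-0.80), PITRM1-AS1 (-1.17), PARD6G-AS1 (-1.33), LENG8-AS1 (-0.92), ZSCAN16-AS1 (-0.53) and MAGI2-AS3 (-0.19) were also lower, with edgeR adjusted p of 0.0135 to 0.0496. Each of these 8 calls was lost under 1 to 4 of the 5 other scalings, and the sign of MAGI2-AS3 turned with TMM factors over all genes (0.16).

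Many known antisense RNAs did not pass the test in this comparison. TP73-AS1 stood at 86.7, 85.8 and 86.3 scaled CPM in KO libraries and 88.8, 89.0 and 83.9 in WT libraries, with overlapping groups and a log2 fold of -0.02 ± 0.05 (edgeR adjusted p = 0.779). HNRNPU-AS1 (0.16 ± 0.07), ZEB1-AS1 (0.26 ± 0.15), PCBP1-AS1 (-0.06 ± 0.22), RBM5-AS1 (-0.15 ± 0.24), HLA-F-AS1 (-0.21 ± 0.21), DDX11-AS1 (-0.15 ± 0.40), TTN-AS1 (-0.35 ± 0.39), DLX6-AS1 (-0.77 ± 0.40) and HOXA-AS2 (0.00 ± 0.37) had edgeR adjusted p of 0.0648 to 0.994. The last 4 had standard errors of 0.37 to 0.40, so folds within that size lay inside their error.

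The 53 low genes were chosen in a way that favours a difference between groups, so their values are given as a description. They summed to 58.2, 109 and 102 scaled CPM in addback libraries, 38.0, 31.8 and 34.7 in KO libraries and 49.4, 110 and 107 in WT libraries. Library 1 was the lowest in both addback and WT, as for the odorant receptor genes, and 69.8% of the 53 genes had that pattern, against 22.6% of the 288. The 288 summed to 2534 to 2555 scaled CPM in addback, 2521 to 2637 in KO and 2477 to 2527 in WT. PIK3CD-AS1, inside the gene of a phosphoinositide kinase, had 24, 98 and 59 counts in addback libraries, 1, 0 and 0 in KO libraries and 12, 81 and 46 in WT libraries. PAX8-AS1, inside the gene of a kidney and thyroid factor, had 21, 61 and 81 counts in addback, 1, 1 and 1 in KO and 15, 83 and 43 in WT. ERICH1-AS1 had 33, 86 and 99 counts in addback, 0, 2 and 1 in KO and 15, 216 and 45 in WT. KO held 1 to 3 counts in all for each of these 3 genes, and neither a fold nor a p is given. The share of the odorant receptor pattern in these values was not tested.

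**Figure D2:**
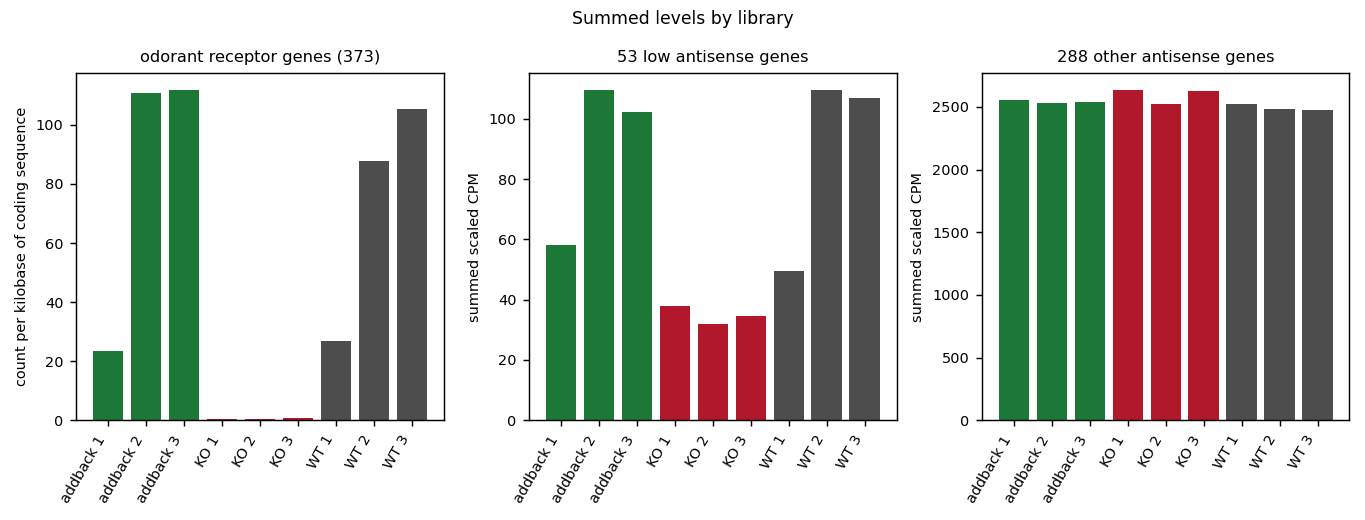
Bars give, for each library, the mean count per kilobase of coding sequence over 373 odorant receptor genes (left), the summed scaled CPM of the 53 low antisense genes (middle) and that of the 288 other antisense genes (right), in the order addback, KO and WT. The low genes stand at 58.2 in addback 1, 31.8 to 38.0 in KO and 49.4 in WT 1, while the 288 others lie between 2477 and 2637 in all 9 libraries.

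Adding UBE3D back was compared with the knockout next; the KO libraries are the same in both comparisons, so the 2 sets of values are not independent. Of the 341 antisense genes, 41 were higher in addback than in KO and 11 lower, beside 51.0% of all genes tested called higher and 6.20% called lower. Among the 288 better-counted genes 13 were higher and 11 lower, against 33.0% and 9.30% of the 14546 genes. GABPB1-AS1 and SLC25A25-AS1 were lower in addback and PITRM1-AS1 was higher. The median log2 fold change was 0.15 over the 341 and 0.48 over all genes tested. All addback libraries lay above all KO libraries in 108 of the 341 and below them in 48, beside 62.8% and 9.63% of all genes tested. TMM factors over all genes gave 25 higher and 28 lower among the 341, and 3 higher and 28 lower among the 288, again with no share of all genes given. The number higher was 17 to 22 without any 1 of KO libraries 1, 2 and 3 and addback libraries 2 and 3, and the number lower was 6 without KO library 1 and 7 without KO library 2. Under all 5 other scalings 25 of the 41 higher calls and 7 of the 11 lower calls were kept. The median of all genes moved by -0.34, -0.30, -0.16, -0.07 and 0.06 under these scalings, so most of them favoured lower calls.

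Those 7 lower calls were IQCH-AS1, GABPB1-AS1, LRRC75A-AS1, TMEM147-AS1, FGD5-AS1, NIPBL-AS1 and SLC25A25-AS1, and they are shown here with their promoters because their calls were kept under every scaling tried. LRRC75A-AS1 had 288, 274 and 264 scaled CPM in addback and the 357, 336 and 341 given above in KO (-0.32 ± 0.04, edgeR adjusted p = 0.00189). IQCH-AS1 had 10.2, 10.6 and 9.99 scaled CPM in addback against 16.0, 15.5 and 14.6 in KO (-0.58 ± 0.15, edgeR adjusted p = 0.0115), a call missed in 2 of 6 fits that left out a library. GABPB1-AS1 had 14.1, 15.4 and 14.5 in addback against 19.5, 20.04 and 20.4 scaled CPM in KO (-0.45 ± 0.10, edgeR adjusted p = 0.00651). In all 3 genes every addback library was below every KO library. SLC25A25-AS1, named after a mitochondrial carrier gene, had 9.76, 8.93 and 9.30 scaled CPM in addback against 16.1, 16.3 and 16.1 in KO, the lowest fold of the 7 (-0.79 ± 0.12, edgeR adjusted p = 0.00222). NIPBL-AS1 had 66.2, 64.6 and 66.5 in addback against 84.0, 80.2 and 87.7 scaled CPM in KO (-0.35 ± 0.04, edgeR adjusted p = 0.00117). FGD5-AS1 and TMEM147-AS1 were lower in addback by log2 folds of -0.25 ± 0.04 and -0.26 ± 0.06 (edgeR adjusted p of 0.00246 and 0.00598). EMC3-AS1 (-0.21), NNT-AS1 (-0.21) and TMPO-AS1 (-0.26) were also lower in addback (edgeR adjusted p of 0.0213 to 0.0424).

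The promoters run from 250 bases before to 50 bases after each start, are taken from RefSeq on GRCh38.p14 and are written 5′ to 3′ on the strand of the gene. They lie at chr15:67521795-67522094 (minus strand), chr15:50353924-50354223 (plus), chr17:16438737-16439036 (plus, listed as SNHG29), chr19:35545980-35546279 (minus), chr3:14948392-14948691 (minus), chr5:36876645-36876944 (minus, listed as NIPBL-DT) and chr9:128118685-128118984 (minus). Capitals mark matches, on either strand, to the CCAAT box (CCAAT), the GC box (GGGCGG), the TATA box (TATAAA), the interferon response element (GAAA, any 2 bases, GAAA), the cAMP response element (TGACGTCA), the NRF1 site (GCGCA followed directly by TGCGC) and an ETS site (CCGGAAGT).
IQCH-AS1: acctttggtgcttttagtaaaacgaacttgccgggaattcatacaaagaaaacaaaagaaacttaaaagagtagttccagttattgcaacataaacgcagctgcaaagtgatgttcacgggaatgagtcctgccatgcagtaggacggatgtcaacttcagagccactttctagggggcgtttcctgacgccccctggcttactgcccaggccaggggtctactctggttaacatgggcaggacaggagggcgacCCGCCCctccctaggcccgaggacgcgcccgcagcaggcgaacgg
GABPB1-AS1: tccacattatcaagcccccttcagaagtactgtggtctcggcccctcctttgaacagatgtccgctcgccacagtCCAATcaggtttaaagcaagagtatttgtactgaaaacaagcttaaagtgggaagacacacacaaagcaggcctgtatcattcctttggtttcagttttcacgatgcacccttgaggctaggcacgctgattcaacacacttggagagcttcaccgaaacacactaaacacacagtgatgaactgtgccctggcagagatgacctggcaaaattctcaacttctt
LRRC75A-AS1: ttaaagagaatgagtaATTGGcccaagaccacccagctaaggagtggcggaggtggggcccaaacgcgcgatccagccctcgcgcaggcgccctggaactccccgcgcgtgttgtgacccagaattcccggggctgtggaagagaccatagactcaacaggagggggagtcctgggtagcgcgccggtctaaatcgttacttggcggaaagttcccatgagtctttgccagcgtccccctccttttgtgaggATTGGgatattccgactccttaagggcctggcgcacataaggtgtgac
TMEM147-AS1: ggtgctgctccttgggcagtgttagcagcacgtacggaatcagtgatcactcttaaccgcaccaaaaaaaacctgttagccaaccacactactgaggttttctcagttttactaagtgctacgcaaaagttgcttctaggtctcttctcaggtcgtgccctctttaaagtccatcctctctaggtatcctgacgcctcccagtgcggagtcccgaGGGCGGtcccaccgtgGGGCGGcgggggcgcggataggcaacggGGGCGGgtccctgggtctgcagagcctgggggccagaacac
FGD5-AS1: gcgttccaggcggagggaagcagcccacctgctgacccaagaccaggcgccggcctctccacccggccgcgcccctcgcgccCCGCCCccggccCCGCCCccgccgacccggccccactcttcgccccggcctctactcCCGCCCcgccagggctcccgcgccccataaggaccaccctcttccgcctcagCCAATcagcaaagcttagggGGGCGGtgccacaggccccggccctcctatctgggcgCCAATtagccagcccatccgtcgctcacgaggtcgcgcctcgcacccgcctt
NIPBL-AS1: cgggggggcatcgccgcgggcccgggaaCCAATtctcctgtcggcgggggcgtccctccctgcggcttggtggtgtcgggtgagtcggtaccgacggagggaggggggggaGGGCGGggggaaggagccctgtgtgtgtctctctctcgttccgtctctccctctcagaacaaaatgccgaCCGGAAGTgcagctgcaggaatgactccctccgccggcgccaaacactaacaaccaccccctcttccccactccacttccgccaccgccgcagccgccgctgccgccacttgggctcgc
SLC25A25-AS1: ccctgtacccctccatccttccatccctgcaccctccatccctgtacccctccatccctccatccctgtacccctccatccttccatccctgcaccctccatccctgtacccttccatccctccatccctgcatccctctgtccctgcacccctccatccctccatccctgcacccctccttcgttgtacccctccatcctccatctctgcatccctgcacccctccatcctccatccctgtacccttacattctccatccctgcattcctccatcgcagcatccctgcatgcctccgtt

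The 7 sequences shared no single motif of those searched. A GC box was found in IQCH-AS1, TMEM147-AS1, FGD5-AS1 and NIPBL-AS1, with 1, 3, 4 and 1 matches, a CCAAT box in GABPB1-AS1, LRRC75A-AS1, FGD5-AS1 and NIPBL-AS1, and the ETS site in NIPBL-AS1. SLC25A25-AS1 held no match in this window, which had 3 CpG, against 32 in FGD5-AS1. A promoter could be matched for 258 of the 341 antisense genes, 210 by symbol and 48 by another symbol. A GC box was in 62.0% of these and in 45.0% of all 35116 promoters, a TATA box in 5.81% and 11.5%, a CCAAT box in 31.4% and 34.6%, the NRF1 site in 3.49% and 1.24%, the cAMP response element in 3.49% and 1.85%, the ETS site in 5.81% and 4.14% and the interferon response element in 3.88% and 3.57%. Median G and C content was 66.0% in the antisense promoters and 58.7% in all, and the median ratio of observed to expected CpG was 0.795 and 0.579. A match describes these letters and is not taken as a site of binding.

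**Figure D3:**
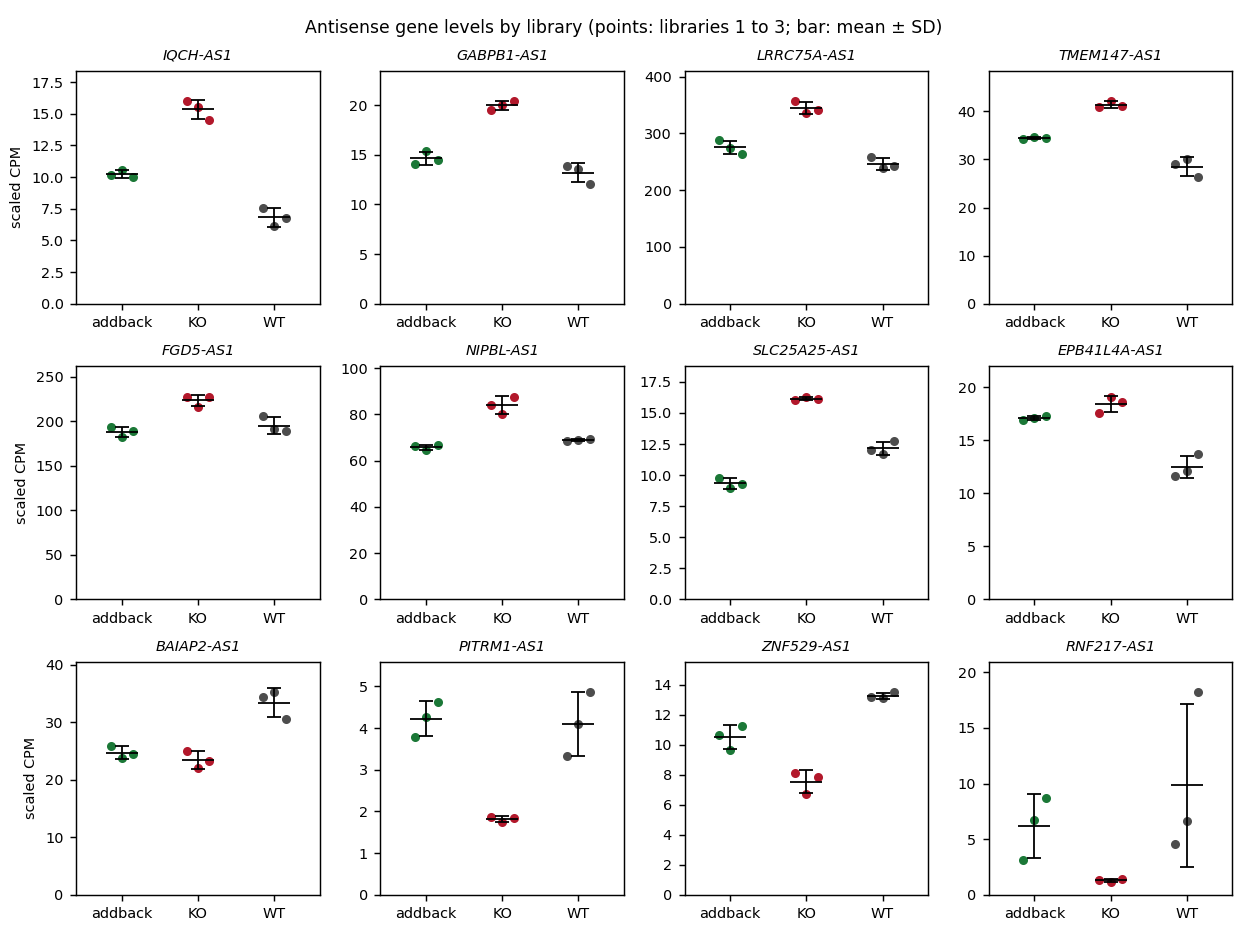
Scaled CPM (vertical axes, from 0) of 12 antisense genes in addback, KO and WT, with a point for each library and a bar at the mean ± SD of 3 libraries. The KO points lie above both other groups in the first 7 panels, from IQCH-AS1 to SLC25A25-AS1, and in PITRM1-AS1, ZNF529-AS1 and RNF217-AS1 they lie below both.

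Among the better-counted genes higher in addback than in KO, PITRM1-AS1 had groups far apart. PITRM1-AS1, inside the gene of a mitochondrial protease, had 3.78, 4.27 and 4.62 scaled CPM in addback against 1.87, 1.73 and 1.84 in KO (1.21 ± 0.35, edgeR adjusted p = 0.0165), and WT libraries stood at 3.32, 4.09 and 4.86. Within addback and within WT its lowest value was in library 1, as for the odorant receptor genes. The part of that pattern in its fold was not tested. PITRM1-AS1 shares 589 of 4076 exon bases with PITRM1. LENG8-AS1 had 3.88, 4.17 and 3.83 in addback against 1.91, 1.48 and 2.10 scaled CPM in KO (1.11 ± 0.36, edgeR adjusted p = 0.0264), and ZNF529-AS1 had 10.7, 9.65 and 11.2 against 8.08, 6.68 and 7.84 (0.48 ± 0.16, edgeR adjusted p = 0.0308). RNF217-AS1 (2.24), MLLT4-AS1 (2.09), LIPE-AS1 (1.81), HOXA-AS3 (1.30) and PARD6G-AS1 (1.19) were higher with edgeR adjusted p of 0.0113 to 0.0371, and addback library 1 was the lowest addback library for all 5. Library 1 was the lowest of both addback and WT in 6 of the 13 better-counted genes higher in addback, or 46.2%, and in 0 of the 11 lower. THAP9-AS1 had 21.6, 22.6 and 25.7 scaled CPM in addback against 19.8, 17.0 and 19.7 in KO (0.31 ± 0.10, edgeR adjusted p = 0.033), and TMM factors over all genes turned this to -0.03. RNF217-AS1 and MLLT4-AS1 stayed past the threshold under all 5 other scalings and in all 6 fits that left out a library. Among the other genes of this paragraph, ZNF529-AS1 and THAP9-AS1 were lost under 4 scalings, LENG8-AS1 and PARD6G-AS1 under 3, HOXA-AS3 under 2, PITRM1-AS1 under 1 and LIPE-AS1 under 0. PITRM1-AS1 missed the threshold in 4 of the 6 fits without a library and each of the other 6 in 5.

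Addback and WT differed in few antisense genes. Of the 341, 7 were higher in addback and 3 lower, beside 4.65% and 4.66% of all genes tested, with median log2 fold changes of 0.03 and 0.01. Of the 288 better-counted genes, 6 were higher and 3 lower, beside 6.85% and 7.02% of the 14546. All addback libraries lay above all WT libraries in 59 of the 341 and below them in 36, beside 10.8% and 10.1% of all genes tested. UNC5B-AS1, a low gene inside that of a netrin receptor, had 3.60, 2.92 and 3.11 scaled CPM in addback against 0.671, 0.580 and 0.773 in WT, with groups far apart, and KO libraries stood at 1.65, 0.722 and 1.51. It passed the limit through its addback level, so this is a description. RAMP2-AS1, at the start of the gene of an adrenomedullin receptor subunit, had 7.52, 8.83 and 10.2 in addback against 3.72, 4.64 and 3.95 scaled CPM in WT (1.11 ± 0.26, edgeR adjusted p = 0.0282). The call of RAMP2-AS1 was kept under all 5 other scalings and missed the threshold in 4 of the 6 fits that left out a library. IQCH-AS1 (0.59), EPB41L4A-AS1 (0.46), THAP9-AS1 (0.43), DHRS4-AS1 (0.32) and TMEM147-AS1 (0.27) were the other 5 higher, and BAIAP2-AS1 (-0.43), ARRDC1-AS1 (-0.34) and MAGI2-AS3 (-0.25) the 3 lower, with edgeR adjusted p of 0.0113 to 0.0478. Each of these 8 calls was lost under 1 to 5 of the 5 other scalings. With the replicate number as a block, which pairs addback and WT libraries, DHRS4-AS1 was lost (edgeR adjusted p = 0.0611). The fits without 1 library gave 0 to 4 higher and 0 to 2 lower, with 0 of each without addback library 2.

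By position relative to the sense gene, only the better-counted antisense genes were compared, as a description, since the way the low genes were chosen favours a difference. The 25 better-counted genes inside their sense gene had a median log2 fold change of -0.31 in KO against WT, with 0 higher and 3 lower, and 0.24 in addback against KO, with 3 higher and 0 lower. The 12 that span their sense gene had a median of -0.44 in KO against WT, with 0 higher and 3 lower. The 97 head-to-head genes had a median of 0.02, with 5 higher and 7 lower in KO, the 85 at the sense start -0.03, with 8 higher and 4 lower, and the 52 at the sense end -0.05, with 3 higher and 6 lower. Beside these stand the 12.6% higher and 37.1% lower of the 14546 genes in KO against WT, and the 33.0% higher and 9.30% lower in addback against KO. No test between the classes was made. The 48 better-counted genes with at least 10% of their exon bases over coding sequence had a median of -0.21, with 0 higher and 3 lower in KO, and the 240 others -0.04, with 19 higher and 23 lower.

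**Figure D4:**
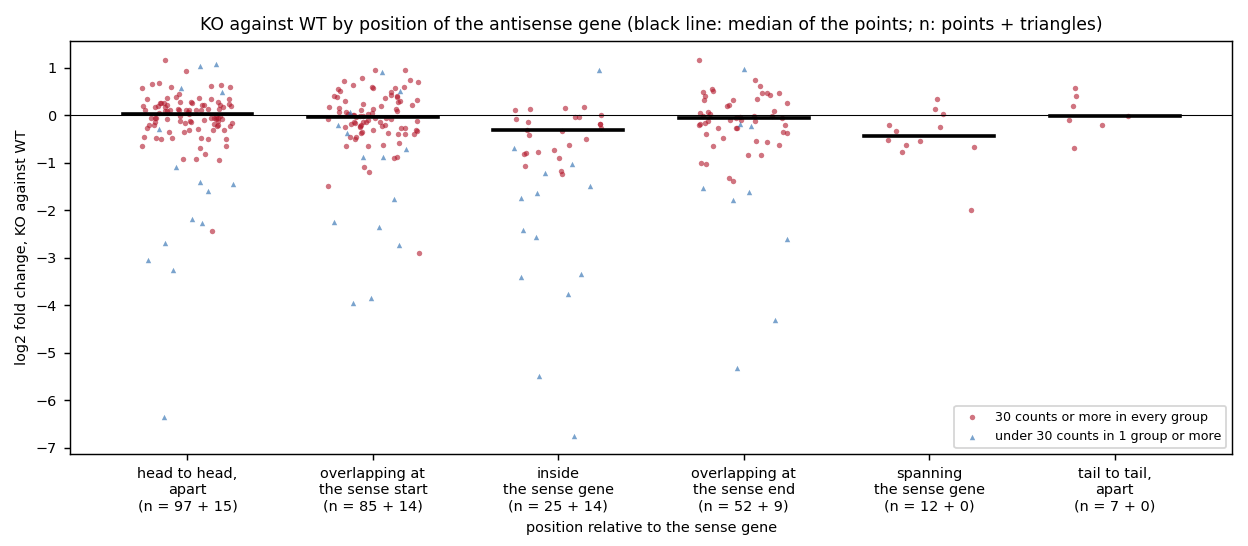
Log2 fold change of KO against WT (vertical axis) for antisense genes grouped by position relative to their sense gene, with points for genes of 30 or more mean counts in every group, triangles for the low genes and a black line at the median of the points of each class. The medians of the points lie at -0.44 for the spanning class and -0.31 for the class inside the sense gene, and 14 of the 53 low genes are inside their sense gene.

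The ratio of antisense to sense counts within a library does not depend on library scaling. Of 329 antisense genes whose pair could be tested, 81 had a higher ratio in KO than in WT and 50 a lower one (limma on log2 ratios, adjusted over 532 pairs), beside 20.7% and 14.3% of all pairs tested. In addback against KO 36 ratios were higher and 50 lower, beside 12.0% and 14.8%, and in addback against WT 3 were higher and 5 lower, beside 0.564% and 1.13%. In the 267 pairs with at least 30 mean counts for both genes in every group, 69 ratios were higher in KO than in WT and 28 lower, 15 were higher in addback than in KO and 42 lower, and 2 were higher in addback than in WT and 5 lower. In KO against WT the median log2 change of the antisense gene in these pairs was -0.05 and that of the sense gene -0.15. Across the 267 pairs, which share the same libraries and scaling and are not independent, the log2 fold changes of antisense and sense gene had a Pearson r of 0.09 and a Spearman rho of 0.11.

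Some of the largest ratio changes came from the sense gene. WEE2-AS1 had 1.35, 1.805 and 2.09 scaled CPM in addback, 1.54, 1.30 and 1.59 in KO and 1.38, 1.86 and 2.41 in WT. WEE2, an oocyte kinase gene, had 51, 174 and 198 counts in addback, 2, 1 and 3 in KO and 59, 178 and 202 in WT, the order of the odorant receptor counts. The ratio rose by 5.59 ± 0.42 in KO against WT (SE, log2; limma adjusted p = 6.05e-05), while the antisense gene itself was at -0.34 ± 0.43. DLGAP1-AS2 (5.33), DLGAP1-AS1 (4.29), FGF14-AS2 (3.98) and FGD5-AS1 (3.66) had the next ratio changes among the better-counted genes, and DLGAP1, a postsynaptic scaffold gene, FGF14, a neuronal growth factor homolog, and FGD5, an endothelial exchange factor gene, were themselves lower in KO by log2 folds of -5.44, -4.43 and -3.54. TTN-AS1, which shares 4496 of its 6390 exon bases with the titin gene, had a ratio 2.5 ± 0.54 higher in KO (limma adjusted p = 0.007), with TTN at -3.06. In the same libraries the odorant receptor counts were near 0 in KO, and their part in the sense levels was not tested.

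In other pairs the antisense gene carried the change. FOXP4 differed little, with 113, 106 and 113 scaled CPM in KO against 128, 130 and 123 in WT (-0.20 ± 0.05, edgeR adjusted p = 0.00592), and the FOXP4-AS1 ratio fell by 1.28 ± 0.17 on the log2 scale (limma adjusted p = 0.000735). PITRM1-AS1 made up 2.95%, 3.46% and 3.67% of the PITRM1 count in addback, 1.49%, 1.29% and 1.43% in KO and 2.56%, 2.98% and 3.46% in WT, and PITRM1 itself was at -0.06 ± 0.04 in KO against WT. The ratio fell by 1.09 ± 0.16 in KO against WT (limma adjusted p = 0.00115) and was 1.26 ± 0.16 higher in addback than in KO (limma adjusted p = 0.000637). Within addback and within WT the PITRM1-AS1 share was lowest in library 1, where odorant receptor counts were lowest. The part of that pattern in the ratio was not tested. RNF217-AS1 (-2.15), MLLT4-AS1 (-2.07), IDI2-AS1 (-1.30) and RARA-AS1 (-1.14) also had low ratio changes in KO against WT, and LENG8-AS1 was 0.98 ± 0.17 higher in addback than in KO (limma adjusted p = 0.00247).

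In some pairs the antisense and the sense gene were called in opposite directions. Among the 267 pairs, 8 had the antisense gene higher and the sense gene lower in KO, 1 the reverse, 14 both lower and 2 both higher. Over all 267 pairs the sense gene was lower in KO in 97, or 36.3%, and higher in 28, so a lower sense gene beside 8 of 19 higher antisense genes is near the share over all pairs. IQCH-AS1 made up 192%, 88.0% and 67.9% of the IQCH count in addback, 734%, 678% and 519% in KO and 111%, 58.5% and 34.4% in WT. IQCH, a gene known from testis, fell by 2.35 ± 0.48 (edgeR adjusted p = 0.00342) while IQCH-AS1 rose. Within addback and WT the IQCH-AS1 share was highest in library 1, where odorant receptor counts were lowest. SLC25A25-AS1 stood at 40.4%, 31.6% and 36.7% of SLC25A25 in addback, 82.9%, 83.6% and 89.3% in KO and 51.5%, 38.5% and 49.2% in WT, with SLC25A25 at -0.49 ± 0.11 in KO against WT (edgeR adjusted p = 0.00505). EPB41L4A-AS1, RBM26-AS1, LRRC75A-AS1, OTUD6B-AS1, NNT-AS1 and FGD5-AS1 rose where EPB41L4A (-0.65), RBM26 (-0.51), LRRC75A (-0.45), OTUD6B (-0.34), NNT (-0.37) and FGD5 (-3.54) fell. The part of the odorant receptor pattern in the IQCH and FGD5 levels was not tested. TMEM147-AS1 and TMEM147 (0.23 ± 0.06, edgeR adjusted p = 0.00859) were both higher in KO.

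**Figure D5:**
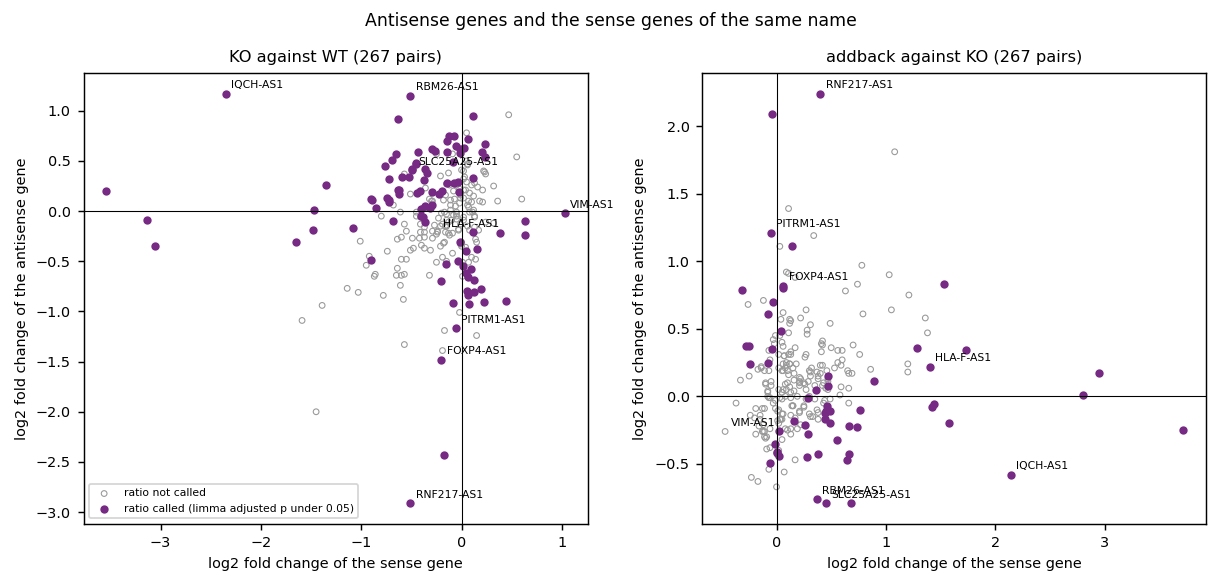
Log2 fold change of the antisense gene (vertical axis) against that of the sense gene (horizontal axis) in 267 pairs with at least 30 mean counts for both genes in every group, for KO against WT and addback against KO; filled points have a called ratio change. IQCH-AS1 lies at 1.17 with IQCH at -2.35 in the left panel, and VIM-AS1 at -0.02 with VIM at 1.03.

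In addback against WT the ratio differed at HLA-F, and at VIM in part of the fits. HLA-F, a nonclassical class I gene, had 71.1, 63.1 and 75.7 scaled CPM in addback, 27.9, 24.5 and 26.9 in KO and 29.4, 32.2 and 32.0 in WT (addback against WT 1.16 ± 0.08, edgeR adjusted p = 5.54e-05), and HLA-F-AS1 had 8.84, 8.34 and 7.56 in addback, 7.56, 6.93 and 6.76 in KO and 9.63, 7.66 and 7.27 in WT. The HLA-F-AS1 ratio was lower in addback than in WT by -1.14 ± 0.16 (limma adjusted p = 0.00805). VIM-AS1, with 641 of 1992 exon bases shared with VIM, stood at 2.25, 1.90 and 2.05 scaled CPM in addback, 2.31, 2.53 and 2.56 in KO and 2.82, 2.41 and 2.27 in WT, and its ratio was lower in addback than in WT by -0.83 ± 0.17 (limma adjusted p = 0.0306). BAIAP2-AS1 (-0.54), ZSCAN16-AS1 (-0.51) and ZNF529-AS1 (-0.50) were the other 3 lower ratios, and UNC5B-AS1 (2.28), WDFY3-AS2 (1.15) and PTPRG-AS1 (1.08) the 3 higher ones. Of these, UNC5B-AS1 is a low gene that passed the limit through its addback level, so its ratio is a description. With only the 6 libraries compared, all 5 lower ratios missed the threshold (limma adjusted p of 0.0942 for HLA-F-AS1 and 0.133 for VIM-AS1). The higher ratios of WDFY3-AS2 and PTPRG-AS1 also missed it (limma adjusted p of 0.138 and 0.111). In the 6 fits that each left out a library, the HLA-F-AS1 ratio passed in all 6 and the VIM-AS1 ratio in 0. The WDFY3-AS2 ratio passed only without addback library 3 (limma adjusted p = 0.0338), and the PTPRG-AS1 ratio missed the threshold in each of these fits.

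The authors' deposited tables list regions of transcription past gene ends, and some of these regions start at antisense genes. In the authors' deposited table of KO against WT, 45 of the 341 antisense genes host such a region, of which 2 were higher in KO and 13 lower, beside 24.8% and 25.0% of all 2541 regions. The 2 higher were those of RBM26-AS1, with a log2 fold of 1.24 ± 0.24 (SE, authors' deposited table, adjusted p = 1.50e-06), and RNASEH1-AS1, with 0.29 ± 0.10 (authors' deposited table, adjusted p = 0.0134). The region of DLX6-AS1 was lower by -0.88 ± 0.13 (authors' deposited table, adjusted p = 3.84e-10). In the authors' deposited table of addback against KO, 44 host a region, 9 higher in addback and 0 lower, beside 18.6% and 15.5% of all 2396. SLC16A1-AS1 and RAMP2-AS1 were among the 9, with log2 folds of 0.24 ± 0.07 and 0.57 ± 0.17 in the authors' deposited table. Folds of the 2 region tables are not on the same scale, and neither table has values per library. In the KO against WT table a region of a gene other than the sense gene runs over 4 antisense genes on the same strand and 6 on the opposite strand, as that of MTAP does over CDKN2A-AS1 (-0.80 ± 0.07 in the authors' deposited table). CDKN2A-AS1, one of the 53 low genes, stood at 0.404, 0.506 and 0.487 scaled CPM in KO and 1.31, 2.58 and 0.954 in WT.

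The authors' deposited gene tables called 89 of the 341 antisense genes higher and 41 lower in KO against WT, beside 21.1% and 41.2% of all 23806 genes listed, and 37 higher and 61 lower in addback against KO, beside 39.8% and 22.2%. Among the 288 better-counted genes the authors' deposited tables called 83 higher and 12 lower in KO against WT, and 9 higher and 61 lower in addback against KO. The main fit here called 19 higher and 26 lower, and 13 higher and 11 lower, so the balance of directions differed from that of the authors. The share of equally counted genes called in the deposited tables is not given.

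Genes that turn over or edit antisense RNA were read from the same fit. Of 25 tested genes of the RNA exosome and its cofactors, 5 were higher and 5 lower in KO against WT, 3 higher and 6 lower in addback against KO and 1 higher and 4 lower in addback against WT, with medians of -0.01, 0.02 and 0.02. Of all genes tested, 8.54% were higher and 53.7% lower in KO against WT, 51.0% and 6.20% in addback against KO and 4.65% and 4.66% in addback against WT. All 25 genes had at least 30 mean counts in every group. Of the 14546 genes counted so, 12.6% were higher and 37.1% lower in KO against WT. These shares were 33.0% and 9.30% in addback against KO and 6.85% and 7.02% in addback against WT. With TMM factors over all genes 20 of the 25 were called in KO against WT, against the 10 here, and the share of all genes called under that scaling is not given. EXOSC3, a cap subunit of the exosome, had 28.1, 28.5 and 27.5 scaled CPM in KO against 44.1, 45.4 and 44.2 in WT (-0.67 ± 0.06, edgeR adjusted p = 0.000161), and NCBP1, the large subunit of the cap-binding complex, was at -0.62 ± 0.06 (edgeR adjusted p = 0.000395). EXOSC5, another core subunit, was higher in KO at 0.56 ± 0.07 (edgeR adjusted p = 0.000683), as was PABPN1, the nuclear poly(A)-binding protein, at 0.40 ± 0.08 (edgeR adjusted p = 0.00246). In addback, EXOSC3 (-0.50) and NCBP1 (-0.60) were still lower than in WT (edgeR adjusted p of 0.000843 and 0.000615). Against KO they stood at 0.17 and 0.02 in addback (edgeR adjusted p of 0.034 and 0.777). EXOSC5 (-0.31) and PABPN1 (-0.22) were lower in addback than in KO (edgeR adjusted p of 0.00453 and 0.033). ADAR, which edits adenosines in double-stranded RNA, had 869, 753 and 902 scaled CPM in addback, 429, 409 and 428 in KO and 405, 404 and 396 in WT, and was higher in addback by 1.00 against KO and 1.07 against WT (edgeR adjusted p of 3.80e-05 and 1.98e-05). ADARB1 was lower in KO than in WT (-0.23, edgeR adjusted p = 0.0403), and ADARB2, at 2.71 to 7.88 scaled CPM in addback, 0.794 to 1.26 in KO and 2.05 to 11.1 in WT, had its lowest value within addback and WT in library 1.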

How the data were processed

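Poly(A) RNA of HEK293 cells was measured in 9 libraries, 3 in each of the addback, KO and WT groups, with groups taken from the labels. The authors deposited raw counts per gene, with no normalization, beside an exon length per gene, and the submitters' processing notes name cutadapt 1.8.1, STAR 2.5.2b, DESeq2 and hg38. For the counting program, its strand setting and the annotation, nothing is stated in the sources used here. The authors also deposited gene and region tables of 2 comparisons with a mean signal (normalized count), a log2 fold change and its standard error, p-values and, in 1 region table, a test score; these were used as deposited.

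Antisense genes were those with an -AS name and a mean raw count of at least 30. The members and lists were chosen with earlier results of these data known. Genes were named by a rule on level, fold and ratio change; EMC3-AS1, OTUD6B-AS1 and RNASEH1-AS1 belong to small counts and were chosen after their values were seen. A gene that is part of the counts is not reported here by name. Counts were tested with edgeR 4.0.16 (quasi-likelihood, robust) in R 4.3.3 in 1 fit of 9 libraries, with TMM factors from 5434 genes at a mean CPM of at least 50 and Benjamini-Hochberg adjustment over 21994 genes. Ratios, log2 of antisense plus 0.5 over sense plus 0.5 counts, were tested with limma 3.58.1 (trend) over 532 pairs. Both steps were tested on simulated data with the same dispersion for every gene and few changed genes. The library 1 pattern and the wide shift between KO and the other groups were not simulated. Total counts were 23088295 to 37508780 per library. Alternatives were other scalings, DESeq2 1.42.0, other count limits, the replicate number as a block, the 6 libraries compared alone, and each library left out. Same-numbered addback and WT libraries deviated together (r of 0.856, 0.563 and 0.72 over 21994 genes), while those of KO did not with either group (-0.058 to 0.027). Coding overlap was read from GENCODE v29 on hg38, promoters from RefSeq on GRCh38.p14.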

Additional observations from a re-analysis of the deposited data

How the results depend on the processing

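Scaling, the count limit and the test moved the counts of calls, and the cause was not tested. The shares of all genes called under these other settings are not given. Antisense genes higher in KO than in WT numbered 20, and 58 with TMM factors over all genes, 47 with DESeq2 size factors, 34 with upper quartile factors, 84 with DESeq2, 56 with no dispersion trend and 37 with only genes at 30 counts or more in every group tested. The 55 lower became 29 with TMM, 31 with DESeq2 size factors, 87 with no trend, 26 with 30 counts required in every group, 22 with a mean count of 100 and 94 with 10. The last 3 limits gave 13, 10 and 81 genes higher in addback than in KO in place of 41; TMM gave 25, no trend 74 and the test on well-counted genes 25. The 11 lower became 28 with TMM or DESeq2 size factors, 18 with upper quartile factors, 7 with scaling genes at a CPM of 100, 59 with DESeq2 and 27 with no trend. In addback against WT, the 7 higher became 2, 3 and 4 with TMM, DESeq2 size factors and upper quartile factors, 4 with DESeq2, 1 with the 6 libraries compared, 17 with no trend and 13 with well-counted genes; the 3 lower became 0, 0 and 1 with these factors, 6 with DESeq2 and 1 with 6 libraries. The well-counted test and the trend option were chosen after seeing the data. With both genes of a pair at 30 counts in every group, 29 ratios were lower in KO against WT, 16 higher in addback against KO and 5 higher in addback against WT; with 6 libraries the last comparison gave 1 higher and 0 lower. Exosome genes called were 20 with TMM or DESeq2 size factors and 19 with DESeq2 in KO against WT, 14, 16 and 15 in addback against KO (3 with no trend), and 2, 2 and 3 in addback against WT (3 with upper quartile factors, CPM 20 or 6 libraries, 2 with no trend). For the 3 editing genes, 1 was called in KO against WT with CPM 20, 6 libraries or no trend. The UBE3D difference of KO against WT was -0.28 with TMM. MAGI2-AS3 (0.16, 0.08 and 0.08) and OIP5-AS1 (0.14, 0.06 and 0.06) turned sign in KO against WT with TMM, DESeq2 size factors and DESeq2, and THAP9-AS1 in addback against KO with TMM (-0.03). Leaving out a library gave 12 to 21 higher, 26 to 58 lower, 53 to 93 ratios higher, 29 to 63 lower, 9 to 10 exosome and 0 to 2 editing genes in KO against WT; 17 to 41, 6 to 11, 20 to 42, 29 to 59, 3 to 9 and 1 to 2 in addback against KO; and 0 to 4, 0 to 2, 1 to 2, 1 to 2, 2 to 5 and 1 to 1 in addback against WT. UBE3D ran from -0.73 to -0.52, 7.72 to 7.87 and 7.05 to 7.27 in these 3 comparisons. With the replicate block, which does not pair KO with either group, 31 were higher and 69 lower in KO against WT and 55 higher and 11 lower in addback against KO; in addback against WT, where the numbers pair the libraries, 7 were higher and 4 lower, with 4 ratios higher and 6 lower. For single named genes, 730 of the leave-one-out values kept call and direction and 260 missed the threshold; of the other settings 1020 kept both, 136 missed it and 7 turned sign. Genes near 30 counts allow only large differences to be called.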

Other observations

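Below the limit of 30 mean counts lay 638 more genes with an -AS name, of which 36 had 0 counts in every library. In 49 of the 638 the mean count of at least 1 group reached 30; this group was addback for 26, KO for 8 and WT for 15. A mean under 3 counts in KO with 10 or more in both addback and WT was found for 26 of the 638, and the reverse for 0. The shares of all genes with such counts are not given, so these numbers are not read as particular to antisense genes. Odorant receptor counts were also near 0 in KO, and the part of that pattern here was not tested.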
